A study of Mus musculus with 52 samples.

Results

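The potassium channel genes described here are the mouse genes whose symbol starts with Kcn, antisense genes with the symbol ending os left out, that reached a mean of at least 0.5 CPM (counts scaled to a common library total) in at least 1 of 9 groups of libraries. They are 84 of 95 such symbols and of 55401 mouse genes in the table. The levels just inside the limit, given as the highest group mean before scaling, were 0.892 CPM for Kcnq1, 1.02 CPM for Kcnn4 and 1.10 CPM for Kcnmb1. Just outside were Kcnrg at 0.464 CPM, Kcnk15 at 0.336 CPM and Kcne3 at 0.220 CPM. By role the 84 genes comprise 29 voltage-gated pore subunits of the Kv1 to Kv4, Kv7 and Kv10 to Kv12 families, 9 electrically silent Kv modifiers, 8 pore subunits gated by calcium, sodium or pH, 14 inward rectifiers, 10 leak channels with tandem pore domains (K2P), 13 auxiliary subunits and Kcnq1ot1. The last is a noncoding RNA antisense to Kcnq1, not a channel, and is included in the counts and sums of members. At the same limit 78 of them were present in spinal cord, 81 in cortex and 37 in skeletal muscle.

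Potassium channels let potassium leave or enter the cell along its gradient, and thereby set the resting potential, end the action potential and fix how fast a neuron or a muscle fibre can fire. Voltage-gated (Kv) channels are tetramers whose alpha subunits form the pore and whose auxiliary subunits alter gating and traffic. Inward rectifiers (Kir) and K2P channels carry most of the resting potassium conductance, in astrocytes as well as in neurons and muscle, while calcium-gated channels shape the hyperpolarization that follows an action potential. Denervated muscle fibres are known to change their set of ion channels.

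The libraries are of poly(A) RNA from 3 tissues, the spinal cord, the cerebral cortex and skeletal muscle, of 3 arms of mice. The first arm held transgenic mice that carry the C71G mutant of profilin 1 (PFN1, which binds actin and is mutated in some families with amyotrophic lateral sclerosis) and received an adeno-associated virus (AAV) encoding an artificial microRNA against Atxn2, here called amiR mice. The second held transgenic mice given vehicle, and the third wild-type FVB/NJ mice given vehicle. Each arm and tissue had 6 libraries, except 5 in transgenic vehicle muscle and 5 in wild-type cortex, with females and males in every group. Of 52 libraries 41 came from mice aged 36 weeks and 11 from transgenic mice aged 38 or 39 weeks, so all wild-type mice were 36 weeks old. Each transgenic group held 2 libraries of these older mice, except transgenic vehicle muscle with 1. The promoter that drives the transgene, and the dose and route of the virus, were not stated in the labels read here. There was no arm with a control vector, so an amiR effect is that of vector and amiR together. The labels do not tie tissues to animals or say that libraries of a group are separate animals. The p-values therefore measure the spread between these libraries.

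Library totals ranged from 66481829 to 111885193 counts. Human PFN1 was at 170.2 to 1613 CPM in transgenic libraries and at most 0.0143 CPM in wild-type libraries. In spinal cord it was at 606.4 to 1165 CPM in amiR and 633.3 to 736 CPM in transgenic vehicle libraries. In cortex these ranges were 995.8 to 1613 and 774.2 to 1248 CPM, and in muscle 185.7 to 305 and 170.2 to 298.8 CPM. Atxn2, the target of the amiR, was at 68.2 to 77.6 CPM in amiR spinal cords, 106.4 to 114.7 CPM in transgenic vehicle spinal cords and 114.7 to 123.9 CPM in wild-type spinal cords. In cortex the ranges were 73.8 to 92.6, 90.3 to 109.7 and 96.5 to 107.3 CPM for the same order of arms, and in muscle 55.9 to 69.96, 61.1 to 69.3 and 50.7 to 60.3 CPM. The vector element WPRE reached 27.6 to 77.6 CPM in amiR spinal cord and cortex and at most 0.0505 CPM in amiR muscle. The labels of muscle and spinal cord fitted defining markers. In muscles 8 myofiber genes summed to 63940 to 119700 CPM, and in spinal cords to 7.12 to 604.3 CPM. The sums of 10 neuronal genes were 5019 to 7942 CPM in spinal cords and 3.89 to 9.43 CPM in muscles. These lists do not separate cortex from spinal cord. In 4 spinal cord libraries (amiR 1 and 2, transgenic vehicle 5 and 6) title and library name give opposite treatments. WPRE followed the title in 4 of 4, so the title was used, and results that move without these libraries are given beside them.

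In wild-type tissue Kcnj10 and Kcnab2 were among the highest channel genes of both spinal cord and cortex, whereas other genes were highest in muscle. Levels between genes are compared per exon length, as reads per kilobase of exon at a common library depth (RPKM, mean ± SD, scaled jointly over the 3 tissues). In spinal cord the highest level was that of Kcnj10, the Kir4.1 channel of astrocytes and oligodendrocytes, at 163 ± 7.72 RPKM, and other high levels were those of the Kv1 beta subunit Kcnab2 at 63.1 ± 5.05 and Kcna2 (Kv1.2, an axonal channel) at 39.9 ± 3.91 RPKM. In cortex Kcnab2 at 54.1 ± 4.21 and Kcnj10 at 50.7 ± 6.74 RPKM did not differ beyond their spread, and next came the Kv4 partner Kcnip2 at 31.1 ± 5.01 RPKM. In muscle Kcnc4 at 55.0 ± 7.60, the pore of the ATP-sensitive channel Kcnj11 at 53.8 ± 15.0 and Kcna7 at 48.0 ± 6.65 RPKM overlapped, ahead of Kcnc1 at 37.0 ± 5.89, Kcng4 at 30.8 ± 12.1 and Kcnj12 (Kir2.2) at 23.9 ± 2.41 RPKM. These are n = 6 spinal cords, 5 cortices and 6 muscles.

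**Figure D1:**
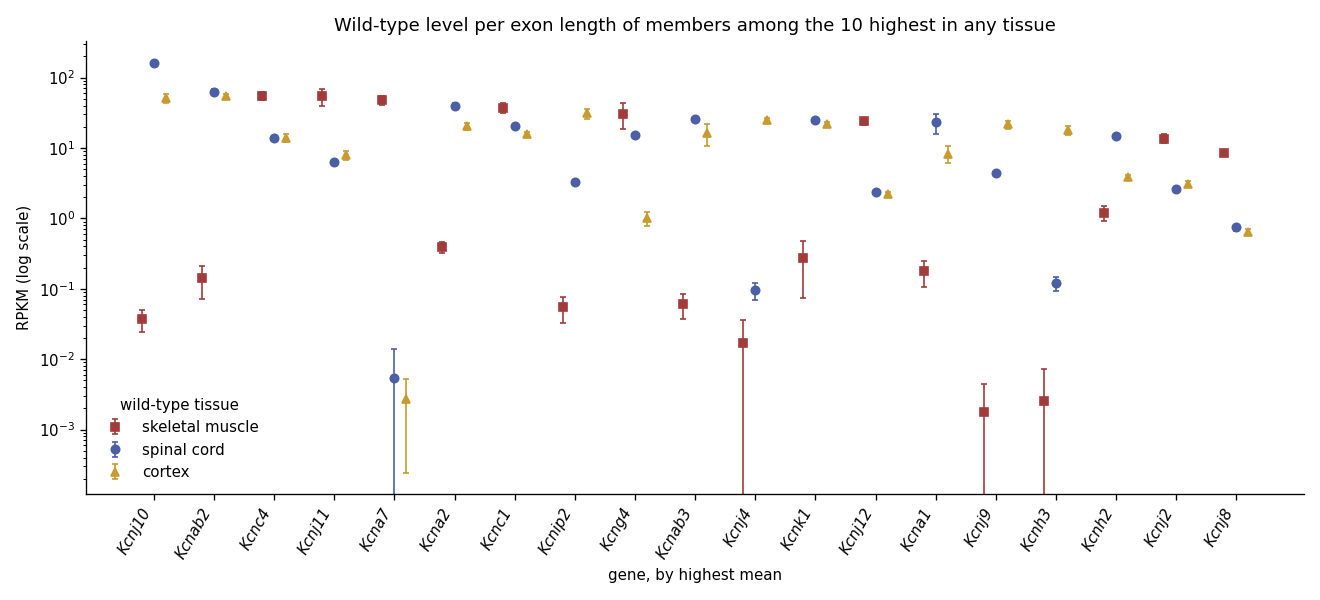
Mean level per exon length (RPKM, log scale) of 19 genes that are among the 10 highest in any tissue, in wild-type spinal cord (n = 6), cortex (n = 5) and muscle (n = 6); bars are SD. Of the genes drawn, Kcnj10 leads in spinal cord, Kcnab2 and Kcnj10 in cortex, and Kcnc4, Kcnj11 and Kcna7 in muscle.

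Between the wild-type nervous tissues, 64 of 84 members differed, 25 higher and 39 lower in spinal cord than in cortex (edgeR quasi-likelihood test, adjusted p under 0.05 over all genes). The share called was 76.2% of the members (29.8% higher, 46.4% lower) and 64.5% of all genes (32.5% higher, 32.1% lower). The largest differences included 2 genes known from forebrain neurons, Kcnj4 and Kcnh3. Kcnj4 (Kir2.3) averaged 0.206 ± 0.0567 CPM in spinal cord and 53.8 ± 3.64 CPM in cortex, a log2 difference of -8.00 (SE 0.18, adjusted p = 1.39e-15). Kcnh3 averaged 0.686 ± 0.155 CPM in spinal cord and 101.8 ± 15.4 CPM in cortex (log2 difference -7.19, SE 0.18, adjusted p = 5.12e-15). Next came Kcnj13 (Kir7.1), known from the choroid plexus, at 0.0404 ± 0.0355 CPM in spinal cord and 2.54 ± 2.43 CPM in cortex (-5.93), the silent modifier Kcnv1 at 1.15 ± 0.130 CPM in spinal cord and 45.1 ± 5.87 CPM in cortex (-5.29), and the auxiliary subunit Kcne2 at 0.0276 ± 0.0102 CPM in spinal cord and 0.932 ± 1.33 CPM in cortex (-5.03). The cortices spread widely for Kcnj13 and Kcne2. Both met the 0.5 CPM limit for members in cortex alone, so their inclusion rests on the higher side of this comparison. Of the 9 silent modifiers 7 were lower in spinal cord.

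Higher in spinal cord were Kcng4, the silent Kv6.4 modifier of Kv2 channels, at 57.3 ± 4.46 CPM against 3.86 ± 0.887 CPM in cortex (log2 difference 3.93, SE 0.21, adjusted p = 5.4e-11), Kcnj14 (Kir2.4) at 14.9 ± 1.13 against 1.34 ± 0.175 CPM (3.48) and Kcnj10 at 881.8 ± 41.7 against 274.1 ± 36.4 CPM (1.70). Spinal cord and cortex did not overlap for any of these 3 genes, nor for 58 members in all (52.3% of all genes tested). CPM in this tissue comparison and in the next are on the joint scale of the 3 tissues, whereas those given further on are scaled within a tissue. The joint values are lower for spinal cord and cortex and higher for muscle, so the 2 scales should not be set against each other.

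Wild-type muscle and spinal cord shared few channels at a like level. Of 84 members 82 differed, 21 higher and 61 lower in muscle, against 88.6% of all genes called (38.9% higher, 49.6% lower). The groups did not overlap for 77 members, against 77.2% of all genes. The members' median log2 difference was -5.32, against -0.29 over all genes. Members needed 0.5 CPM in only 1 group of libraries, a limit that 78 met in spinal cord and 37 in muscle. All genes were filtered by count, not by this limit. A gene high in 1 tissue alone thus entered through that tissue, and these counts and the median follow in part from the rule. Kcna7, a Kv1 channel of muscle, averaged 104.8 ± 14.5 CPM in muscle and had no count in 3 of 6 spinal cords, so no fold is given. Of the other genes higher in muscle several were Kir channels, among them Kcnj8, a pore of ATP-sensitive channels, at 21.3 ± 2.04 CPM in muscle and 1.89 ± 0.182 CPM in spinal cord (log2 difference 3.50), Kcnj12 at 65.7 ± 6.63 and 6.48 ± 0.477 CPM (3.34), Kcnj11 at 197.8 ± 55.1 and 23.5 ± 1.5 CPM (3.06) and Kcnj2 (Kir2.1) at 73.9 ± 11 and 14.0 ± 0.728 CPM (2.40). Kcnh6, Kcng3, Kcns2, Kcnv1 and Kcnk12 had no count in any of the 6 wild-type muscles. The K2P gene Kcnk5 was among the 2 members not called, at a log2 difference of 0.11 (adjusted p = 0.581), with Kcne2. Without the trimmed-mean (TMM) scaling of library sizes the median of all genes lay at -1.57, and 77 members were called, 12 higher and 65 lower.

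In spinal cord the transgene went with lower levels of the potassium channel genes. Between transgenic vehicle and wild-type spinal cords 42 of 80 tested members differed, 7 higher and 35 lower, against 36.8% of all tested genes, 18.8% higher and 17.9% lower. The median log2 change was -0.20 over the members and 0 over all genes. The members summed to 4482 to 5141 CPM before scaling in amiR spinal cords, 4798 to 5110 CPM in transgenic vehicle spinal cords and 5907 to 6279 CPM in wild-type spinal cords, and both transgenic ranges lay below the wild-type one. For 35 members the groups did not overlap, 5 higher and 30 lower, against 22.9% of all genes tested (11.8% higher, 11.1% lower). Without TMM scaling, where the median of all genes lay at 0.10, 38 members were called, 9 higher and 29 lower. These are bulk samples, in which fewer cells of a type and less RNA per cell cannot be told apart.

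Cell type markers moved in the same libraries. Of 10 neuronal markers 8 fell in transgenic vehicle spinal cords (median log2 change -0.41, summed 5019 to 5700 CPM, against 7315 to 7942 CPM in wild type), among them Nefl, a neurofilament, by 0.89 and Snap25, a synaptic fusion protein, by 0.41 on the log2 scale. Of 8 motor neuron markers 8 fell (-0.86, summed 110.3 to 279.8 against 339.4 to 395.4 CPM). Of 7 genes of interneurons (Pvalb, Gad1, Gad2, Slc32a1, Slc6a5, Tac1 and Erbb4), not limited to fast-spiking ones, 3 fell (-0.22, summed 786.2 to 932 against 1061 to 1237 CPM). Of 12 markers of microglia and macrophages 11 rose (2.37, summed 761.9 to 911 against 205.8 to 290.1 CPM). Of 8 astrocyte markers 3 rose and 2 fell, with summed levels of 8969 to 10310 against 5951 to 7405 CPM, and of 8 oligodendrocyte markers 1 rose. The sums of 6 Schwann cell markers spread widely, at 171.5 to 1237 CPM in transgenic vehicle and 156.3 to 719.9 CPM in wild-type spinal cords. The part of these markers in the changes of the channel genes was not tested.

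Among voltage-gated pore subunits, 13 of 28 tested members fell in transgenic vehicle spinal cords and 0 rose. Kv3 channels open at high voltage and close fast, which lets neurons fire at high rates. Kcnc1 (chr7:46396497-46438704, GRCm38) lay at 186.7, 209.7 and 230.3 CPM (lowest, median, highest) in transgenic vehicle spinal cords and at 254.9, 274.9 and 288.7 CPM in wild-type spinal cords. No transgenic vehicle library reached the lowest wild-type one. The log2 change was -0.37 (SE 0.07, adjusted p = 2.76e-04). Kcnc4 fell by 0.32 without overlap and Kcnc2 by 0.25 with overlap (adjusted p = 0.0131).

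Kv1 channels sit along axons beside the nodes of Ranvier. Kcna2 lay at 397.5, 463 and 529 CPM in transgenic vehicle spinal cords and at 602, 664 and 807 CPM in wild-type ones, with no overlap (log2 change -0.54, SE 0.08, adjusted p = 9.44e-05). Kcna1, which forms tetramers with Kcna2, lay at 42.2, 99.3 and 129.7 CPM in transgenic vehicle and 93.5, 155 and 237 CPM in wild-type spinal cords. The arms overlapped for Kcna1, whose change of -0.86 (SE 0.27, adjusted p = 0.0198) was called in 24 of 27 alternative analyses and differed between the sexes, as given further on. The other 4 tested Kv1 genes were not called, with log2 changes of -0.13 to 0.26. Of 8 genes of the Kv10 to Kv12 family 4 fell, among them Kcnh2, the ERG1 channel, at -0.49 (SE 0.07, adjusted p = 3.7e-05) and Kcnh1 at -0.45 (SE 0.06, adjusted p = 3.19e-05). The Kv4 gene Kcnd1 fell by 0.49 on the log2 scale, without overlap.

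**Figure D2:**
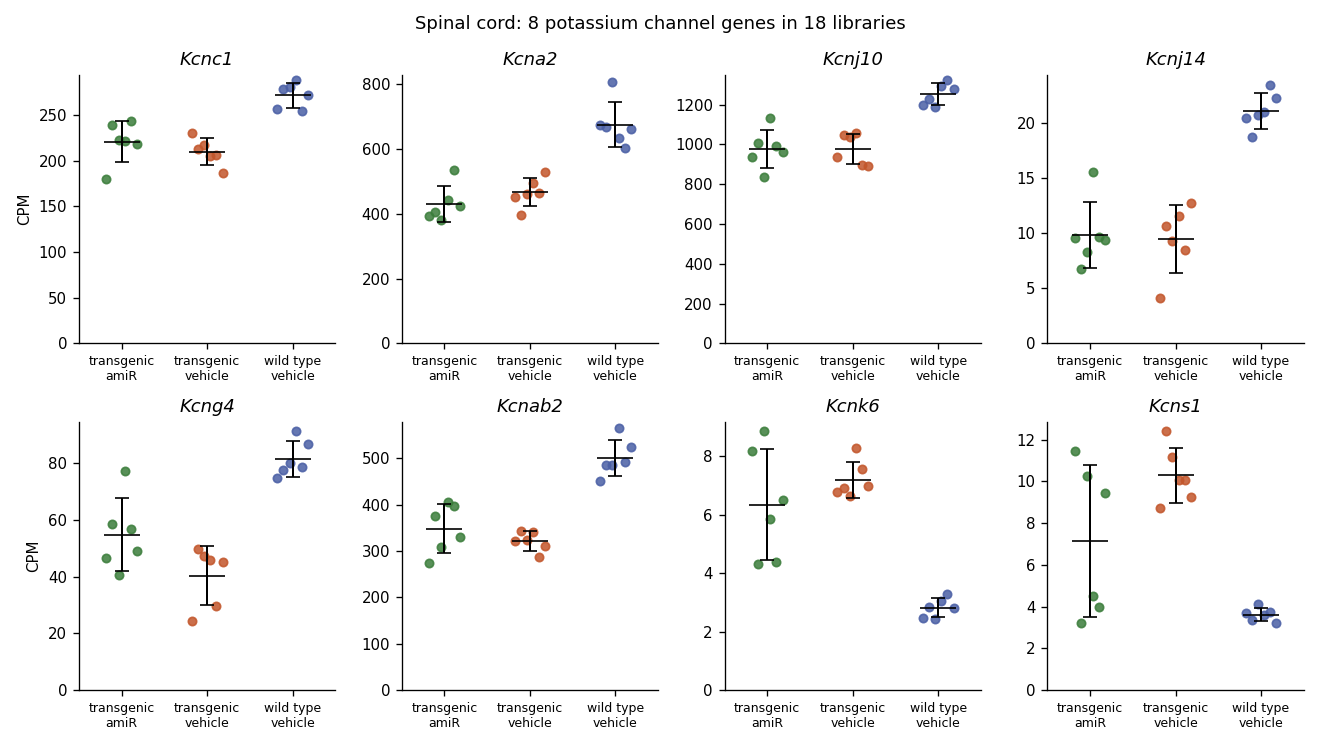
Level (CPM, scaled within spinal cord) of 8 genes in each amiR, transgenic vehicle and wild-type spinal cord (n = 6 each, from left to right); points are libraries, lines are means and bars are SD. Kcnc1, Kcna2, Kcnab2, Kcnj10, Kcng4 and Kcnj14 lie lower in all transgenic vehicle libraries than in any wild-type one, Kcnk6 and Kcns1 higher, and Kcns1 separates into high and low libraries in the amiR arm.

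Silent modifiers form no channel of their own and join Kv2 subunits. Of 8 tested, 3 fell and 1 rose. Kcng4 lay at 24.5, 45.5 and 49.5 CPM in transgenic vehicle spinal cords and at 74.6, 79.2 and 91.2 CPM in wild-type ones (log2 change -1.01, SE 0.16, adjusted p = 1.16e-04). Kcng1 (Kv6.1) lay at 3.14, 3.39 and 3.60 CPM in transgenic vehicle against 5.12, 6.84 and 8.02 CPM in wild-type spinal cords, a change of the same size (-1.01, SE 0.16, adjusted p = 7.24e-05), and Kcns3 fell by 0.63. None of these 3 genes overlapped between the arms. Kcns1 (Kv9.1) went the other way, at 8.73, 10.1 and 12.4 CPM in transgenic vehicle against 3.21, 3.65 and 4.11 CPM in wild-type spinal cords (log2 change 1.5, SE 0.25, adjusted p = 1.6e-04).

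Of 13 tested inward rectifiers 7 fell and 2 rose. The most abundant, Kcnj10, which takes up potassium released by active neurons, lay at 891, 986 and 1056 CPM in transgenic vehicle spinal cords and at 1190, 1252 and 1325 CPM in wild-type ones, without overlap (log2 change -0.36, SE 0.07, adjusted p = 3.58e-04). Of the 8 astrocyte markers, the intermediate filament Gfap rose by 1.49, the water channel Aqp4 by 0.93 and Aldh1l1 by 0.33 on the log2 scale in the same libraries, Fgfr3 fell by 0.34 and Aldoc by 0.23, and the other 3 were not called. Kcnj14 had the largest fall of any member, at 4.08, 9.98 and 12.8 CPM in transgenic vehicle against 18.7, 20.9 and 23.4 CPM in wild-type spinal cords (log2 change -1.17, SE 0.19, adjusted p = 1.13e-04). Kcnj6 and Kcnj3, subunits of G-protein-gated channels, fell by 0.51 and 0.27, and Kcnj12, Kcnj11 and Kcnj16 by 0.41, 0.40 and 0.19. Kcnj2 and Kcnj4 rose, by 0.39 and 1.08. Kcnj4 stayed at a low level, 0.501 to 0.789 CPM in transgenic vehicle against 0.190 to 0.435 CPM in wild-type spinal cords.

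Of 10 leak channels 5 fell and 1 rose. Kcnk9 (TASK3) lay at 117, 139 and 158 CPM in transgenic vehicle against 199.7, 218 and 229.8 CPM in wild-type spinal cords (log2 change -0.66, SE 0.09, adjusted p = 1.84e-05), and Kcnk12 fell by 0.84, Kcnk4 by 0.54, Kcnk10 by 0.38 and Kcnk1 by 0.26. Kcnk6 (TWIK2, chr7:29221926-29232515) rose: it lay at 6.63, 6.95 and 8.27 CPM in transgenic vehicle against 2.42, 2.83 and 3.28 CPM in wild-type spinal cords (log2 change 1.35, SE 0.16, adjusted p = 4.99e-06). Kcnk13 was not called, at 18.6 to 25.5 CPM in transgenic vehicle and 19.1 to 27.7 CPM in wild-type spinal cords. Kcnn4, the calcium-gated KCa3.1 channel, rose by 1.42 (SE 0.26, adjusted p = 4.02e-04), at 0.524 to 1.44 CPM in transgenic vehicle against 0.235 to 0.587 CPM in wild-type spinal cords. The neuronal calcium-gated genes Kcnn1 and Kcnn2 fell by 0.50 and 0.34. Kcnma1, the BK channel, fell by 0.34 with overlap, and its call (adjusted p = 0.043) held in 16 of 27 alternatives.

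Auxiliary subunits split by kind. The 3 Kv beta subunits, which attach to Kv1 tetramers, all fell without overlap: Kcnab2 lay at 287, 323 and 343 CPM in transgenic vehicle against 450.3, 488.5 and 564 CPM in wild-type spinal cords (log2 change -0.63, SE 0.08, adjusted p = 1.22e-05), Kcnab1 changed by -0.61 (SE 0.07, adjusted p = 3.54e-06) and Kcnab3 by -0.44 (SE 0.06, adjusted p = 2.07e-05). The Kv4 partner Kcnip4 fell by 0.20. The small transmembrane subunits Kcne4 and Kcne1l rose by 0.74 and 0.67, both at low levels. The other 6 tested auxiliary subunits were not called. Of 34 genes outside the Kcn symbols that encode partners of these channels or related pores, 33 were tested and 20 fell and 0 rose (median -0.28, summed 4397 to 4834 CPM in transgenic vehicle against 5489 to 6305 CPM in wild-type spinal cords). Adam23, which joins the LGI1 complex at Kv1 channels, fell by 0.68 and Cntnap1, a paranodal adhesion protein, by 0.49. Of 23 pumps and cotransporters that move potassium, 5 rose and 7 fell: Fxyd1, a regulator of the sodium pump, rose by 1.33 and Slc12a5, the neuronal chloride-extruding cotransporter, fell by 0.44.

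**Figure D3:**
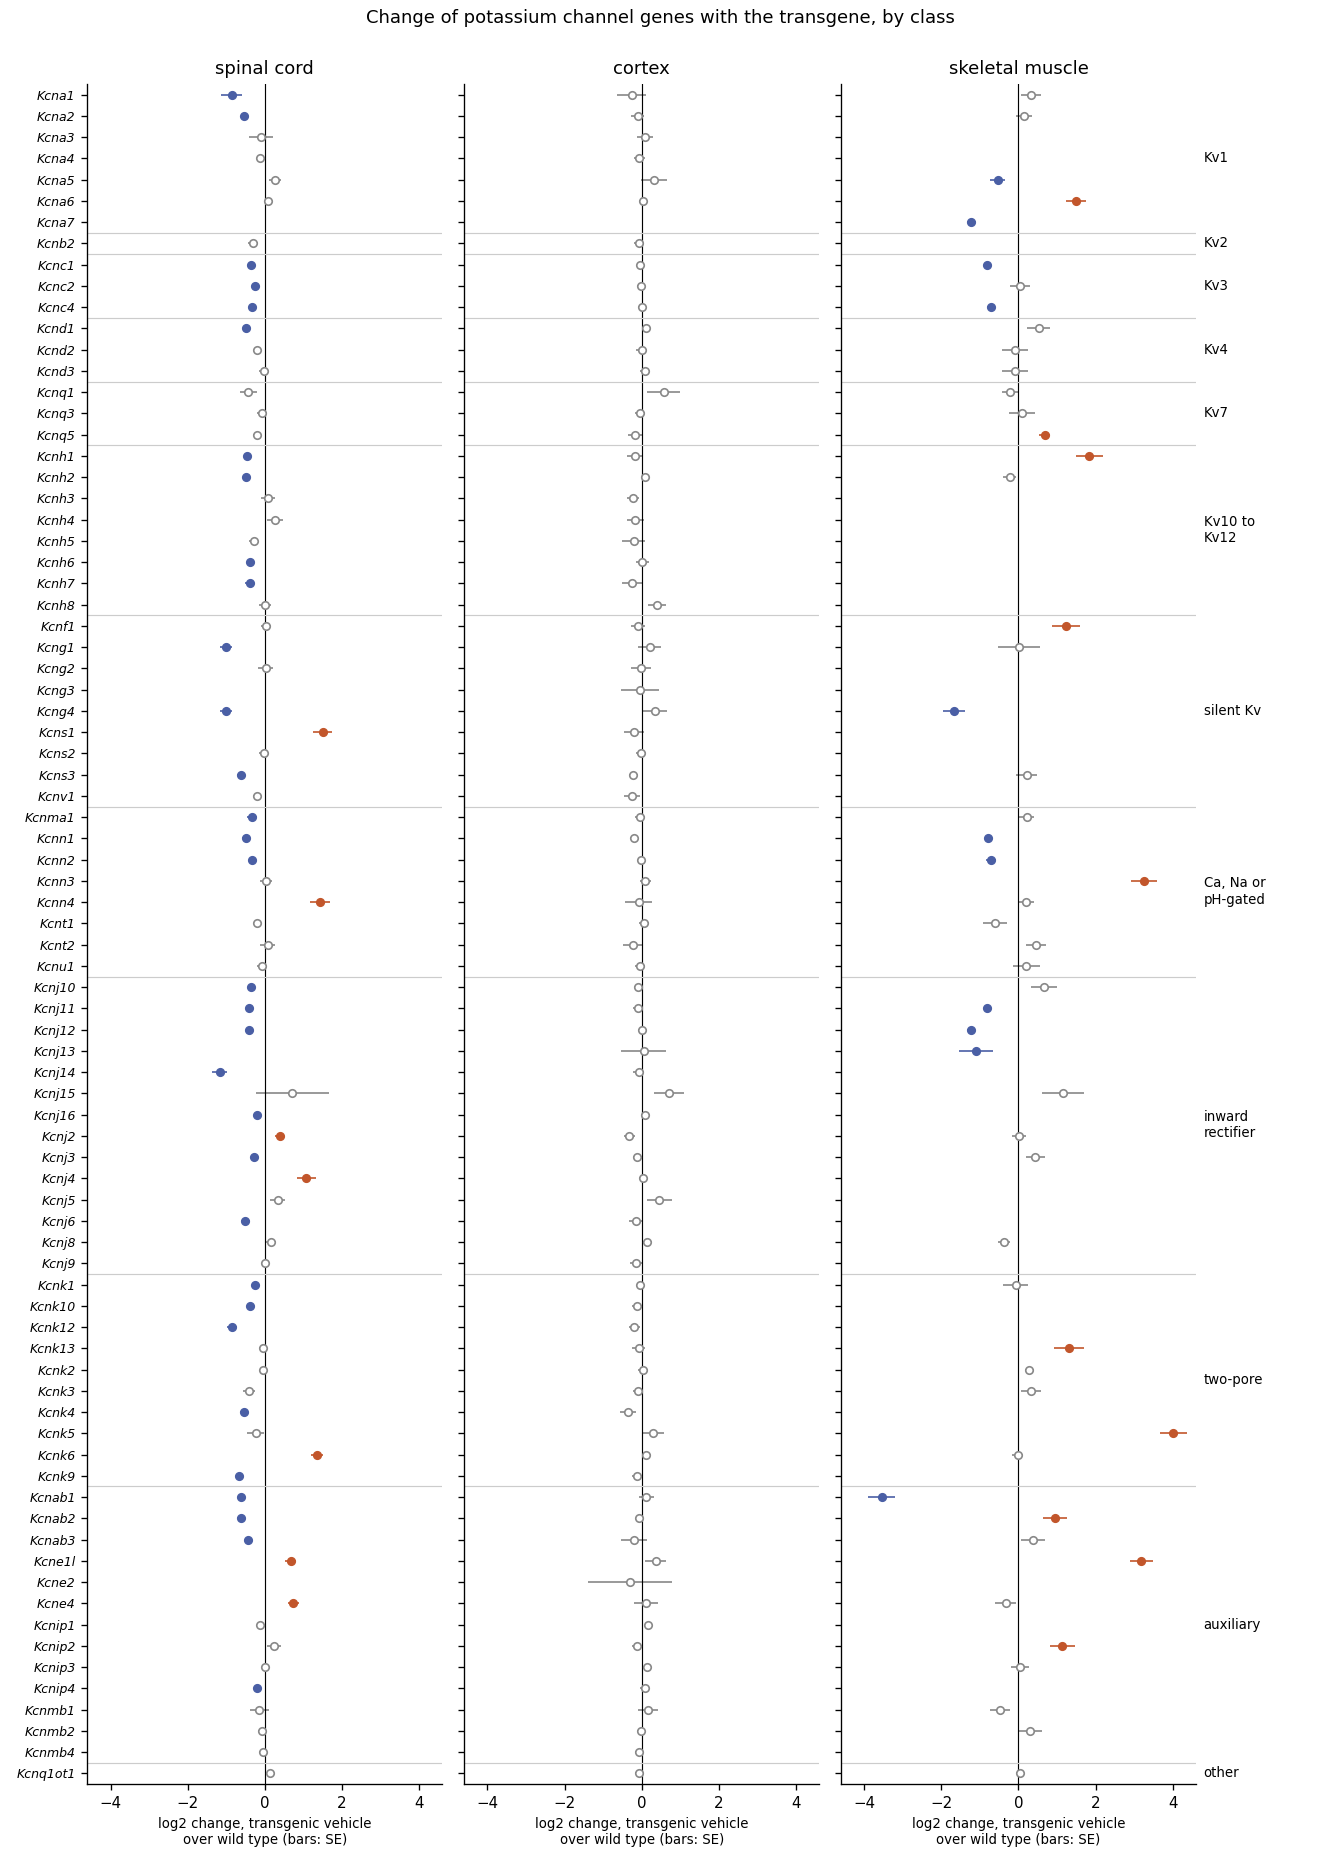
Log2 change of 80 members, where tested, in transgenic vehicle over wild-type tissue, grouped by channel class, in spinal cord, cortex and muscle (panels from left to right); bars are SE and filled points have an adjusted p under 0.05. Called changes in spinal cord lie mostly left of 0, cortex has none, and muscle has called changes of both signs up to 4.02 on the log2 scale.

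Few members differed between amiR and transgenic vehicle spinal cords. This comparison and the previous one share the transgenic vehicle libraries, so their values are set side by side only. The test called 2 of 80 members, against 5.11% of all genes. The groups overlapped for every member, whereas 2.23% of all genes had groups that did not. The median change was 0.03, against 0 over all genes. Kcnj16, the Kir5.1 partner of Kcnj10, averaged 83.9 ± 5.09 CPM in amiR and 73.8 ± 4.73 CPM in transgenic vehicle spinal cords (SD, n = 6 each, log2 change 0.18, adjusted p = 0.0239). Kcnj9, a G-protein-gated Kir, averaged 22.6 ± 3.16 CPM in amiR and 27.5 ± 4.05 CPM in transgenic vehicle spinal cords (-0.28, adjusted p = 0.0472). These calls held in 17 and 5 of 27 alternatives. Without the 4 libraries with conflicting names 2 members were again called, but neither of these. With DESeq2 11 members were called, and with the library names as groups, with RNA integrity number as a covariate, without the low-count filter, without the older mice or with replicate number as a block 0.

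Kcnc1 lay at 179.5, 222.5 and 243 CPM in amiR spinal cords, overlapping the transgenic vehicle range given above (amiR over transgenic vehicle 0.08, SE 0.07, adjusted p = 0.531). Kcng4 and Kcng1 had log2 values of 0.43 and 0.50 in the same comparison and did not pass the test (adjusted p = 0.119 and 0.0667). Kcns1 was at 11.5, 10.2 and 9.46 CPM in amiR libraries 1, 3 and 6 and at 3.20, 4.53 and 3.98 CPM in amiR libraries 2, 4 and 5, which is inside the transgenic vehicle range in the first set and beside the wild-type range in the second. The sets were formed after the values were seen. Human PFN1 was at 609.3, 606.4 and 787.8 CPM before scaling in the first set and 878.7, 1041 and 1165 CPM in the second. Its relation to the levels of Kcns1 was not tested. Over the whole arm Kcns1 had a log2 value of -0.54 (SE 0.25, adjusted p = 0.197). Of the markers, 3 of 8 motor neuron genes rose in amiR over transgenic vehicle spinal cords (median 0.79, summed 291.7 to 612 against 110.3 to 279.8 CPM), 3 of 10 neuronal genes rose and 1 of 12 microglial genes fell (summed 368.6 to 903.8 against 761.9 to 911 CPM). One partner gene and 1 pump gene fell.

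Set against wild type, amiR spinal cords had 38 called members, 5 higher and 33 lower (25.5% of all genes called, 14.6% higher and 11% lower), and 20 without overlap (12.6% of all genes). The median was -0.24, against 0.01 over all genes. Kcnc1 changed by -0.30 (adjusted p = 0.00288), Kcna2 by -0.66 (adjusted p = 2.73e-05), Kcnd1 by -0.65 (adjusted p = 7.35e-06) and Kcnk6 by 1.17 (adjusted p = 4e-05). Kcnc4 and Kcnj16, which fell in transgenic vehicle spinal cords, were not called between amiR and wild type (adjusted p = 0.131 and 0.984). Kcnip1 and Kcnt1, by -0.32 and -0.34, were called here (adjusted p = 9.98e-04 and 0.00622) and not between transgenic vehicle and wild type. Between amiR and transgenic vehicle they were not called (adjusted p = 0.0613 and 0.278).

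In cortex the channel genes showed no called change with the transgene. Of 83 tested members 0 differed between transgenic vehicle and wild-type cortex with edgeR, against 0.0247% of all genes, and 3 had an unadjusted p under 0.05. DESeq2 called 0 as well. Kcnc1 lay at 181, 201 and 230.6 CPM in transgenic vehicle and 182.7, 213 and 218 CPM in wild-type cortex, with overlap (log2 change -0.03, SE 0.07, adjusted p = 0.995). No neuronal, astrocyte or microglial marker was called in this comparison. Between amiR and transgenic vehicle cortex 0 of 83 members were called with edgeR (0.0197% of all genes), with 11 at an unadjusted p under 0.05 and 1 called by DESeq2. Between amiR and wild-type cortex 1 of 83 was called (1.12% of all genes): Kcnip3, a calcium-binding Kv4 partner, lay at 79.8, 95.1 and 117 CPM in amiR cortex and at 68.97, 70.3 and 72.8 CPM in wild-type cortex (n = 6 and 5, log2 change 0.43, SE 0.09, adjusted p = 0.0408). Its groups did not overlap, but the call held in 9 of 24 alternatives. DESeq2 called 5 members here, 2 higher and 3 lower.

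The difference between the tissues was itself tested. The transgene effect in spinal cord minus that in cortex was called for 22 of 83 members, 5 higher and 17 lower in spinal cord, against 14.3% of all genes (6.33% higher, 7.94% lower). Without the 4 libraries with conflicting names the count was 11. Kcnd1 had a difference of -0.64 (SE 0.11, adjusted p = 7.58e-05), Kcnh2 of -0.62, Kcnc1 of -0.38 (SE 0.10, adjusted p = 0.00906) and Kcnab2 of -0.59 (SE 0.11, adjusted p = 2.44e-04). On the higher side stood Kcnk6 at 1.2 (SE 0.20, adjusted p = 1.01e-04), Kcns1 at 1.67 (SE 0.37, adjusted p = 0.00215) and Kcnj4 at 1.02 (SE 0.24, adjusted p = 0.00388). The Kv1 genes gave 0 called differences of 6. The amiR effect in spinal cord minus that in cortex was called for 0 members (0.172% of all genes), with 9 at an unadjusted p under 0.05 and 2 called by DESeq2.

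In muscle the channel genes moved in both directions, with log2 changes between -3.54 and 4.02, where those in spinal cord lay between -1.17 and 1.5. Between transgenic vehicle and wild-type muscles 23 of 55 tested members were called, 11 higher and 12 lower, against 50.5% of all genes tested (25.7% higher, 24.8% lower), so the members' share is below the background. The groups did not overlap for 13 members, 6 higher and 7 lower (28.9% of all genes, 14.5% higher and 14.4% lower). The median log2 change was 0.04, against 0.01 over all genes. Without TMM scaling, which puts the median of all genes at 0.35, 32 members were called, 23 higher and 9 lower, and 20 of the 23 kept their call. Kcna5 and Kcnj13 were among those that lost it. The members summed to 759.5 to 830.5 CPM in amiR, 758.5 to 805 CPM in transgenic vehicle and 771.6 to 916.9 CPM in wild-type muscles.

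Markers of denervation moved with them. All 10 markers of denervated fibres rose in transgenic vehicle over wild-type muscle (median 4.08, summed 912.8 to 1349 against 84.8 to 115.1 CPM), among them the acetylcholine receptor subunits Chrnd by 4.27 and Chrna1 by 3.93 on the log2 scale. Of 11 tested macrophage markers 11 rose and of 6 fibroblast markers 6 rose. Of 8 myofiber genes 2 rose and 4 fell: Myh4, a fast myosin heavy chain, fell by 2.12 and Myh7, a slow one, rose by 4.57. The motor neuron markers Mnx1, Chat and Slc18a3 had no count in either arm, and the motor neuron list had no called member. The part of other cells in the changes of the channel genes was not tested.

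Of the 3 genes that rose most, Kcnk5 and Kcne1l had little RNA in wild-type muscle, and Kcnn3 had more. Kcnk5 (TASK2, chr14:20140057-20181809), a K2P channel sensitive to pH and cell volume, had 20.2, 11.8, 26.3, 24.9 and 33.8 CPM in the 5 transgenic vehicle muscles and a lowest, median and highest level of 0.785, 1.36 and 1.91 CPM in wild-type muscles. The groups were far apart, and the log2 change was 4.02 (SE 0.34, adjusted p = 1.97e-07). Kcnn3 (chr3:89520164-89675132) encodes the apamin-sensitive SK3 channel, which is known to appear in denervated fibres. It had 84.4, 56.7, 49.4, 61.4 and 71.5 CPM in transgenic vehicle muscles, against 3.36, 7.39 and 13.6 CPM in wild-type ones (log2 change 3.26, SE 0.34, adjusted p = 1.24e-06). Kcne1l (Kcne5, chrX:142304752-142306294), a small auxiliary subunit, had 1.26, 1.83, 1.39, 1.81 and 0.783 CPM in transgenic vehicle muscles, against 0.0924, 0.145 and 0.266 CPM in wild-type ones (log2 change 3.19, SE 0.29, adjusted p = 3.99e-07). The lowest transgenic vehicle library stood above the highest wild-type one for all 3 genes. The other genes that rose included Kcnh1 by 1.84, Kcna6 by 1.5, Kcnk13 by 1.31, Kcnf1 by 1.24, Kcnip2 by 1.14, Kcnab2 by 0.95 and Kcnq5 by 0.68. A transcript on the Kcna6 locus, Gm26673, shares 39.6% of the exon bases of Kcna6, and the sources used here do not say whether the counting used strand.

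The genes that fell included channels with high levels in wild-type muscle. Kcnj12 (chr11:61022564-61071131), a Kir2 channel that holds the resting potential, had 14.9, 15.8, 19.2, 18.1 and 21.5 CPM in transgenic vehicle muscles, against 36.6, 41.8 and 46.7 CPM in wild-type ones (log2 change -1.24, SE 0.09, adjusted p = 4.14e-08). Kcna7 had 24.6, 30.2, 26.5, 25.2 and 33.4 CPM in transgenic vehicle muscles, against 53.2, 66.8 and 76.7 CPM in wild-type ones (-1.22, SE 0.12, adjusted p = 5.68e-07). Neither gene overlapped between the arms. The Kv beta subunit Kcnab1 (chr3:65109384-65378223) fell most, to 0.849, 1.13, 1.56, 1.60 and 1.48 CPM in transgenic vehicle muscles, against 4.00, 14.4 and 33.9 CPM in wild-type ones (-3.54, SE 0.35, adjusted p = 8.1e-07), and the wild-type libraries themselves spread widely. The silent modifier Kcng4 had 8.58, 9.19, 48.1, 33.4 and 53.6 CPM in transgenic vehicle muscles and 44.6, 67.98 and 115 CPM in wild-type ones. The arms overlapped for Kcng4 (-1.67, SE 0.28, adjusted p = 1.16e-04), and the transgenic vehicle libraries at 8.58 and 9.19 CPM were those of the 2 females. Wild-type females lay at 44.6 to 61.9 CPM. Males lay at 33.4 to 53.6 CPM in transgenic vehicle and 74.0 to 115 CPM in wild type, so that the arms did not overlap within either sex.

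Further falls included those of the Kv3 genes Kcnc1 by 0.82 and Kcnc4 by 0.71, of Kcnj11 by 0.81, and of the SK genes Kcnn1 by 0.78 and Kcnn2 by 0.72. Kcnc1 had 124, 136, 119, 119 and 118 CPM in transgenic vehicle muscles, against 174, 237 and 252 CPM in wild-type ones, without overlap. Kcna5 fell by 0.54 (adjusted p = 0.0348, held in 13 of 24 alternatives). Kcnj13 was called at -1.11 from levels of 0 to 0.103 CPM in transgenic vehicle and 0.0532 to 0.220 CPM in wild-type muscles, with 49.1% of its exon bases shared with Gigyf2, and held in 4 of 15. No Kv4 gene was called, nor the abundant Kcnj2, which had a log2 change of 0.02 (SE 0.18, adjusted p = 0.939).

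**Figure D4:**
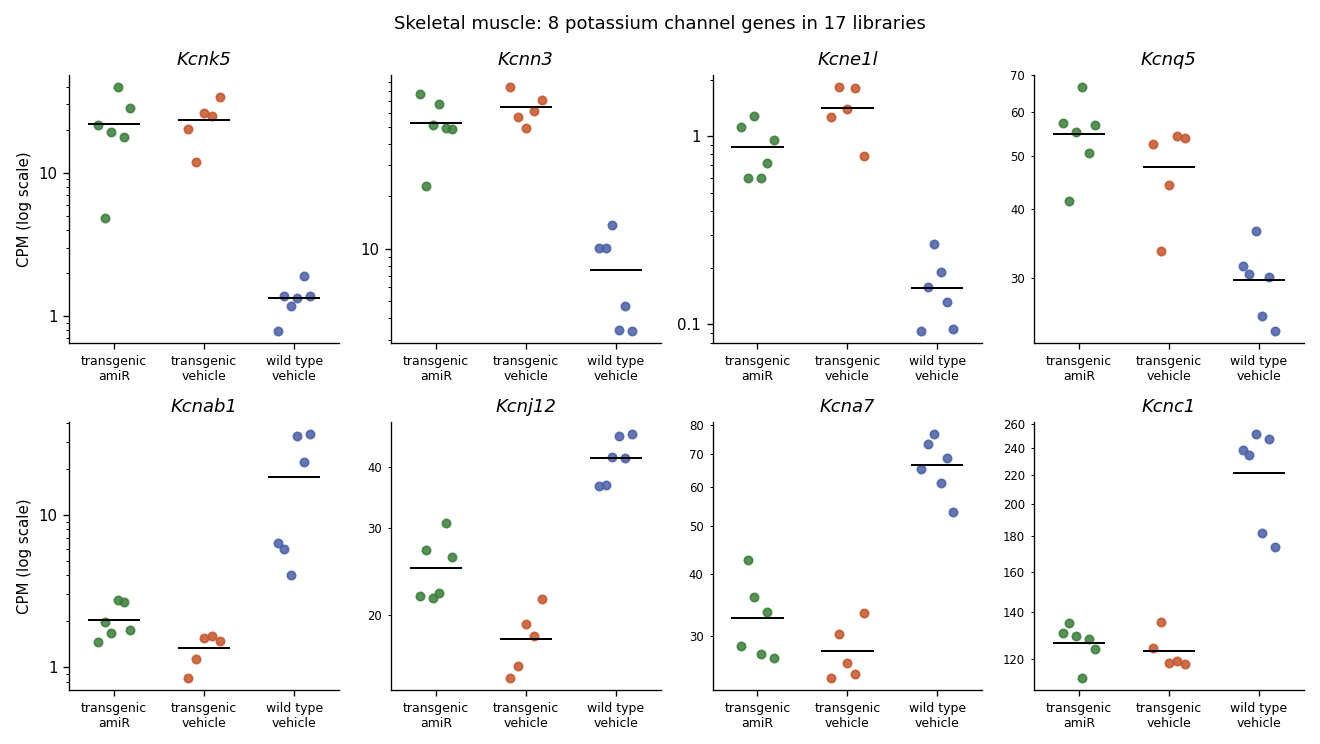
Level (CPM, log scale, scaled within muscle) of 8 genes in each amiR (n = 6), transgenic vehicle (n = 5) and wild-type muscle (n = 6), from left to right; points are libraries and lines are means. Kcnk5, Kcnn3 and Kcne1l lie higher, and Kcnab1, Kcnj12, Kcna7 and Kcnc1 lower, in all transgenic vehicle libraries than in any wild-type one; the Kcnq5 arms overlap.

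The promoters of the 3 genes with the largest rise and of 3 genes that fell and stand among the 10 highest in wild-type muscle are shown, as examples of genes that changed in muscle. Each line runs 5′ to 3′ on the gene's strand over 300 bases, 250 before and 50 from the RefSeq transcription start (GRCm38.p6). For Kcnj12 this start lies far inside the gene body given above, away from its 5′ end. The Kcna7 window also lies within its gene body, near the 5′ end. Capitals mark CANNTG, the E-box to which myogenic transcription factors bind. The motif is its own reverse complement, so a search of 1 strand covers both, and CAGCTG is counted within it.
Kcnk5 promoter, chr14:20181733-20182032, minus strand: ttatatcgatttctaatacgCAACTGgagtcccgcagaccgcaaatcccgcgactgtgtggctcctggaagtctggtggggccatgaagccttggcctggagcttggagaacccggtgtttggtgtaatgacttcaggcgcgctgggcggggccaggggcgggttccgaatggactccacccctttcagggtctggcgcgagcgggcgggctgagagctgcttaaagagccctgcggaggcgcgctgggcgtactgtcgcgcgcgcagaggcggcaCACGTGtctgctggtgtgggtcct
Kcnn3 promoter, chr3:89519914-89520213, plus strand: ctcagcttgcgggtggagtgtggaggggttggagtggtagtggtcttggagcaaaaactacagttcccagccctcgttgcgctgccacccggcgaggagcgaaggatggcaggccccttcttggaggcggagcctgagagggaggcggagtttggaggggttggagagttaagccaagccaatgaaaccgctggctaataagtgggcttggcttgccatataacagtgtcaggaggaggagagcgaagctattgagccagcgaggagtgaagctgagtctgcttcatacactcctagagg
Kcne1l promoter, chrX:142306149-142306448, minus strand: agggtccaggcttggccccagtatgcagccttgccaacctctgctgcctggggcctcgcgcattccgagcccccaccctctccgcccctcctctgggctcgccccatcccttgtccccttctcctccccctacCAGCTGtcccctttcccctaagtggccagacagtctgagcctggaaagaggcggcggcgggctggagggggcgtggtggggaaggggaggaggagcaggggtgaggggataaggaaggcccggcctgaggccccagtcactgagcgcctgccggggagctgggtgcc
Kcna7 promoter, chr7:45405710-45406009, plus strand: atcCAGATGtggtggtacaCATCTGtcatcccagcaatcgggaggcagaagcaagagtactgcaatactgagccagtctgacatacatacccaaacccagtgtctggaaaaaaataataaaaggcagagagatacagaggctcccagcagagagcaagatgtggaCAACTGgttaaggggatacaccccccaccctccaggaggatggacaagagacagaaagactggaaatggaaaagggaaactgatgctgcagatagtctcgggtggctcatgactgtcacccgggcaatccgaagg
Kcnj12 promoter, chr11:61065554-61065853, plus strand: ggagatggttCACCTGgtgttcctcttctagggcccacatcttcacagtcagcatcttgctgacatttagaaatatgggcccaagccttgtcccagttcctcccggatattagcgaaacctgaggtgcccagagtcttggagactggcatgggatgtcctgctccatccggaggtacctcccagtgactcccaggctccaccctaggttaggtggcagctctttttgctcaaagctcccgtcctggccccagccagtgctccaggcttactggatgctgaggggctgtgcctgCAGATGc
Kcng4 promoter, chr8:119635631-119635930, minus strand: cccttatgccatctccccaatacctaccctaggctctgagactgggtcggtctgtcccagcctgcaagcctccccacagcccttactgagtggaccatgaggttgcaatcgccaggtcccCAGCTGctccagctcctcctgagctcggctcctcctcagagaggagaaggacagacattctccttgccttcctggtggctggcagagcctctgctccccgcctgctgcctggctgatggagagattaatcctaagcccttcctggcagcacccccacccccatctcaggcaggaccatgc
The promoters of Kcna7, Kcnk5 and Kcnj12 hold 3, 2 and 2 matches, those of Kcne1l and Kcng4 1 each, of the form CAGCTG, and that of Kcnn3 none. RefSeq promoters were found for 61 of the 84 members, and 45 of them (73.8%) hold a CANNTG in any of their windows, against 72.3% of all 32851 windows. CAGCTG occurs for 17 members (27.9%) and in 16.3% of all windows. Of the matched members 47 have 1 window and the rest several, so the members' share is per gene and the background per window.

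Between amiR and transgenic vehicle muscles 1 of 55 members was called, against 1.12% of all genes. These values share the transgenic vehicle libraries with the comparison above. Kcnj12 averaged 25.0 ± 3.70 CPM in amiR and 17.9 ± 2.67 CPM in transgenic vehicle muscles (SD, n = 6 and 5), a log2 change of 0.51 (SE 0.09, adjusted p = 0.0237) that held in 16 of 24 alternatives. DESeq2 called 3 members. The amiR muscles stood between the other arms, with 21.6 to 30.8 CPM against 36.6 to 46.7 CPM in wild type. Kcng4 had a log2 value of 0.91 (adjusted p = 0.0941) and Kcnk5 of -0.03 (adjusted p = 0.972), and neither was called. Denervation markers had no called member here and summed to 348.2 to 1238 CPM in amiR and 912.8 to 1349 CPM in transgenic vehicle muscles.

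Between amiR and wild-type muscles 22 members were called, 12 higher and 10 lower (35.2% of all genes, 17.5% higher and 17.7% lower), and 10 did not overlap (14.4% of all genes). Without TMM scaling, with the median of all genes at 0.20, the count was 24, 18 higher and 6 lower, and with RNA integrity number as a covariate 12, 5 higher and 7 lower. The RNA integrity number was 7.6 to 8 in amiR and 7.1 to 7.8 in wild-type muscles. Kcnk5 changed by 3.99, Kcnn3 by 2.93, Kcne1l by 2.46, Kcnab1 by -2.75, Kcna7 by -1.03 and Kcnj12 by -0.73. Kcnk5 lay at 4.82, 20.5 and 39.7 CPM in amiR muscles, with the lowest value in library 2, which also had the lowest Kcnn3 (22.8 CPM) and the lowest Kcnf1 (1.60 CPM) of its arm. Kcnj10, the glial Kir channel, was called at 1.27 (adjusted p = 0.00565) at 0.159 to 0.532 CPM in amiR and 0.0798 to 0.189 CPM in wild-type muscles.

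A difference in the transgene effect between spinal cord and muscle was called for 34 of 82 members, 10 higher and 24 lower in spinal cord (33.5% of all genes, 17.7% higher and 15.8% lower). The members' share was 41.5%, 12.2% higher and 29.3% lower. Neither share was limited to genes tested in both tissues. Of 50 members tested in both, 27 were called. The 34 include Kcnv1 (-4.09), Kcna4 (-3.12), Kcnj6 (-2.47), Kcnj14 (-1.91) and Kcnk10 (-1.83). These lay at no more than 0.103 CPM in any transgenic vehicle or wild-type muscle, and Kcng2 (-1.58) at no more than 0.157 CPM. The muscle effects of these genes rest on very few counts, so their values do not show a difference between tissues. Without TMM scaling, with the median of all genes at -0.21, 37 were called, 5 higher and 32 lower. The effect in spinal cord minus that in muscle was -4.24 for Kcnk5 (SE 0.40, adjusted p = 1.28e-09), -3.21 for Kcnn3 (SE 0.38, adjusted p = 7.18e-08) and -2.50 for Kcne1l (SE 0.32, adjusted p = 4.01e-07). It was 2.96 for Kcnab1 (SE 0.33, adjusted p = 3.06e-08), 0.85 for Kcnj12 (SE 0.12, adjusted p = 1.26e-06) and 1.39 for Kcnk6 (SE 0.23, adjusted p = 1.85e-05). Kcnk5 in spinal cord had a log2 change of -0.24 (adjusted p = 0.417) and Kcnn3 of 0.03 (adjusted p = 0.913), with overlap of the arms. Kcnk6, which rose in spinal cord, had a log2 value of -0.02 in muscle (adjusted p = 0.914). Kcnab1, Kcnj12, Kcnj11, Kcng4, Kcnn1, Kcnn2 and the Kv3 genes Kcnc1 and Kcnc4 fell in both tissues, and Kcne1l rose in both. Kcnh1 and Kcnab2 fell in spinal cord and rose in muscle, Kcnab2 to a level of 0.839 to 1.21 CPM in transgenic vehicle against 0.173 to 0.770 CPM in wild-type muscles.

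**Figure D5:**
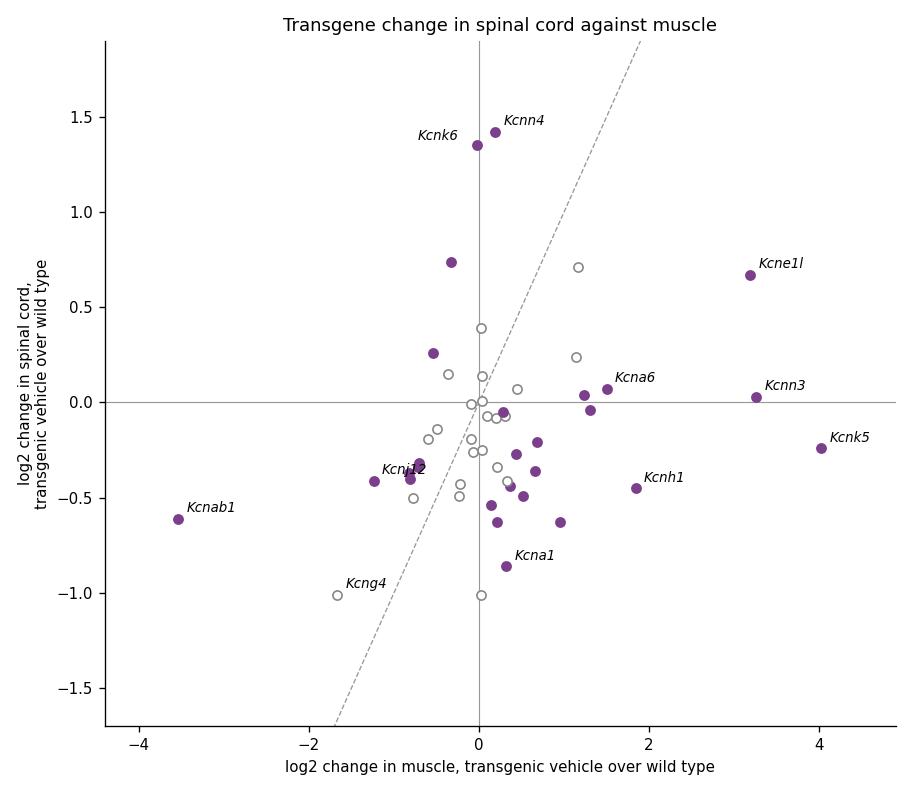
Log2 change with the transgene in spinal cord (vertical) against that in muscle (horizontal) for 50 members tested in both tissues, transgenic vehicle over wild type; the 27 filled points have a called difference between the tissues and the dashed line marks equal change. The axes have different spans: Kcnk5, Kcnn3 and Kcne1l lie far right and Kcnab1 far left. On the vertical axis Kcnk5 lies below 0, Kcnn3 near 0 and Kcne1l above 0.

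In wild-type muscle several of these genes also differed between the sexes, a comparison added after the library values were seen. Between male and female wild-type muscles (3 each) 5 of 55 members were called, 3 higher and 2 lower in males, against 2.33% of all genes (1.52% higher, 0.814% lower). Kcnab1 lay at 22.3 to 33.9 CPM in wild-type males and at 4.00 to 6.53 CPM in wild-type females, with no overlap (log2 difference 2.43, SE 0.22, adjusted p = 1.18e-05). In transgenic vehicle muscles it lay at 1.48 to 1.60 CPM in 3 males and 0.849 to 1.13 CPM in 2 females, so that both sexes were below wild type. Kcnj11 averaged 95.9 CPM in males and 154.7 CPM in females (-0.69, adjusted p = 0.00167), Kcnn3 3.83 and 11.3 CPM (-1.56, adjusted p = 0.0253) and Kcnk1 0.609 and 0.164 CPM (1.85, adjusted p = 0.0478). With 1 library left out 2 to 6 members were called, 2 without wild-type library 1. The transgene effect in males minus that in females was called for 0 of 55 members in muscle (0.112% of all genes), with 9 at an unadjusted p under 0.05, among them Kcnab1 at -1.80 (SE 0.33, adjusted p = 0.0566).

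In spinal cord the transgene effect differed between the sexes for 5 of 80 members, all 5 higher in males, against 10.3% of all genes (7.47% higher, 2.80% lower). The members' share is below the background. Kcna1 lay at 104.7 to 129.7 CPM in transgenic vehicle males and 93.5 to 147.5 CPM in wild-type males, and at 42.2 to 93.95 CPM in transgenic vehicle females and 163 to 237 CPM in wild-type females. The arms overlapped in the males and not in the females, and the effect in males minus that in females was 1.58 (SE 0.37, adjusted p = 0.025). The other 4 were Kcnb2, Kcnh7, Kcnma1 and Kcnn3. Kcnn3, the SK3 gene, averaged 27.2 CPM in transgenic vehicle males and 19.6 CPM in wild-type males, and 19.8 CPM in transgenic vehicle females and 26.1 CPM in wild-type females, so that its average was higher than that of wild type in the males and lower in the females (0.86, SE 0.25, adjusted p = 0.039). Of the 3 transgenic vehicle females 2 were older than 36 weeks, and all males were 36 weeks old. Without the older mice 9 members were called, Kcna1 at 1.78 (adjusted p = 0.0092) and Kcnma1 no longer (adjusted p = 0.0517). The count rests on single libraries: it was 0 without wild-type library 3, 4 or 5 or transgenic vehicle library 1, 2, 5 or 6, 3 without wild-type library 1 and 10 without transgenic vehicle library 3. Between wild-type males and females 0 of 80 members were called in spinal cord (0.143% of all genes) and 0 of 83 in cortex (0.0345%), with 11 and 3 at an unadjusted p under 0.05. In cortex the effect in males minus that in females was called for 0 members and 0% of all genes, with 6 members at an unadjusted p under 0.05.

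Some members are neighbours on the chromosome, by gaps between gene bodies in GRCm38. Kcnj9 and Kcnj10 lie 11.9 kb apart on chromosome 1, and in transgenic vehicle over wild-type spinal cord their log2 values were 0.01 (adjusted p = 0.928) and -0.36. Kcnj16 and Kcnj2 lie 38.2 kb apart on chromosome 11, with values of -0.19 and 0.39. On chromosome 3 Kcna3 and Kcna2 lie 63.1 kb apart, with values of -0.10 (adjusted p = 0.826) and -0.54. On chromosome 6 Kcna1 lies 61.9 kb from Kcna6 and 105 kb from Kcna5. Its value was -0.86, and theirs were 0.07 (adjusted p = 0.363) and 0.26 (adjusted p = 0.225). Differences between neighbours were not tested.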

How the data were processed

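The authors deposited RSEM expected counts for each gene, which the labels and the values show to be unscaled. The submitters' processing notes name STAR 2.7.2d, RSEM 1.3.2, bcl2fastq 2.20 and DESeq2 1.34.0, and the builds GRCm38 and GRCh38. They give neither roles nor an annotation release. Counts outside mouse genes made up no more than 0.167% of any library. Expected counts were rounded to whole numbers, filtered with filterByExpr, scaled by TMM and fitted in R 4.3.3 with edgeR 4.0.16 (quasi-likelihood, arm and sex as terms). Fits ran within each tissue, over the wild-type libraries of 3 tissues, and over pairs of tissues for differences between effects. P-values were adjusted by Benjamini-Hochberg over all tested genes: 20307 in spinal cord, 20278 in cortex, 16949 in muscle, 20615 over wild-type tissues, and 21562 and 21434 for spinal cord with cortex and with muscle. Called means an adjusted p under 0.05. SE is the log2 change divided by the square root of F. DESeq2 1.42.0 was an alternative. The fits were tested on simulated data. Libraries of a group differed by more than counting error, with a chi-square per gene of at least 13. Any member could be named, first the members called, with 2 to 4 examples per role, and the 10 highest in each wild-type tissue, and of each marker list up to 4 called genes. Alternatives covered scaling, the low-count filter, DESeq2, no sex term, RNA integrity, replicate blocks, library names, older mice and each library left out. The members and lists were chosen with earlier results of these data known. Values of some genes are not reported here, and counts of members include them.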

Additional observations from a re-analysis of the deposited data

Results flagged for a closer look

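Among called members reported here, 207 groups of libraries were searched for 1 library far from the others by Dixon's gap test at the 95% level, which flags about 1 in 20 groups by chance, and 9 stood apart. In transgenic vehicle spinal cord these were library 4 for Kcnd1 (17.2 CPM, next 15.8), library 6 for Kcnh1 (21.0, next 25.0), library 5 for Kcnab3 (70.5, next 77.1) and library 1 for Kcnj12 (7.79, next 7.01). In amiR spinal cord it was library 4 for Kcnj14 (15.6 CPM, next 9.69) and Kcnn2 (35.7, next 31.0). In wild-type spinal cord library 3 stood apart for Kcna2 (807 CPM, next 675) and Kcnma1 (135, next 97.6). In muscle transgenic vehicle library 1 stood apart for Kcnh1 (1.26 CPM, next 0.637).

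The transgene effect differed between tissues by the test of the difference itself. Spinal cord minus cortex was called for 22 members, with Kcnd1 at -0.64, Kcnh2 at -0.62, Kcnab2 at -0.59, Kcnk6 at 1.2, Kcns1 at 1.67 and Kcnj4 at 1.02 on the log2 scale. Spinal cord minus muscle was called for 34 members, of which 27 were among the 50 tested in both tissues. Called differences included Kcnk5 at -4.24, Kcnn3 at -3.21, Kcne1l at -2.50, Kcnab1 at 2.96, Kcnj12 at 0.85 and Kcnk6 at 1.39.

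In spinal cord the transgene effect in males minus that in females was called for 5 members. The differences were 1.58 for Kcna1, 0.77 for Kcnb2 (adjusted p = 0.0249 in edgeR), 0.68 for Kcnh7 (adjusted p = 0.0262), 0.65 for Kcnma1 (adjusted p = 0.0496) and 0.86 for Kcnn3. The test was chosen after seeing the library values.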

How the results depend on the processing

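Outside the comparisons between wild-type tissues, no value of a called gene changed sign under the other settings. Of these values 5358 stayed on their side of the threshold and 439 no longer passed it. Single genes were not followed between wild-type tissues, so sign changes there were not checked. Of the counts of called members, those between wild-type tissues included, 349 stayed within 1.5 times of the reported count and 54 did not. For amiR over transgenic vehicle spinal cord (2 called) the count was 11 with DESeq2, 1 without the sex term, and 0 with the 4 conflicting libraries grouped by library name, with RNA integrity as a covariate, without the low-count filter, with the replicate block and without the older mice. Leaving out 1 library gave 0 to 8: 0 without transgenic vehicle 1 or 5 or amiR 4, 1 without wild type 1, 4, 5 or 6, transgenic vehicle 2, 3 or 4 or amiR 5, 4 without transgenic vehicle 6 or amiR 6, 6 without amiR 3 and 8 without amiR 1. For amiR over wild-type cortex (1 called) it was 5 with DESeq2 and 0 with RNA integrity, without TMM, without the filter and without the older mice, and 0 to 2 with 1 library left out (2 without transgenic vehicle 2). For amiR over transgenic vehicle cortex (0 called) DESeq2 called 1. For amiR over transgenic vehicle muscle (1 called) it was 3 with DESeq2 and 0 without the sex term, with the replicate block and without the older mice, and 0 to 4 with 1 library left out (0 without transgenic vehicle 1, 2, 3 or 4 or amiR 5, 2 without amiR 1, 4 without wild type 3). For amiR over wild-type muscle (22 called) RNA integrity as a covariate gave 12. For the transgene effect in spinal cord minus cortex (22 called) leaving out the 4 conflicting libraries gave 11, and for the amiR effect in spinal cord minus cortex (0 called) DESeq2 gave 2. The causes were not tested.

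With 1 library left out the larger counts stayed within 40 to 45 members for transgenic vehicle over wild-type spinal cord, 33 to 40 for amiR over wild-type spinal cord, 20 to 24 and 18 to 24 for the same contrasts in muscle, 59 to 65 and 81 to 83 between wild-type tissues, and 15 to 24 and 26 to 37 for the effect in spinal cord minus cortex and minus muscle. Grouped by library name the spinal cord counts were 46 and 34, and without the conflicting libraries 47 and 33. Deviations from the group means of same-numbered libraries had correlations of -0.12 to 0.30 (spinal cord), -0.30 to 0.49 (cortex) and -0.21 to 0.42 (muscle). Between transgenic vehicle and amiR cortices they lay at 0 to 0.49. Title numbers, used here, do not always equal the numbers in the library names. Pairing was therefore neither shown nor excluded. With the replicate block transgenic vehicle over wild type had 45 called members (spinal cord), 0 (cortex) and 22 (muscle), amiR over wild type 35 in spinal cord and 17 in muscle, and the effects in spinal cord minus cortex and minus muscle 20 and 32. For the transgene effect in males minus females the spinal cord count was 9 without the older mice and 0 to 10 with 1 library left out, the muscle count 0 to 1, and wild-type males and females gave 2 to 6 in muscle and 0 to 0 in spinal cord.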
